A study of Mus musculus with 180 samples.

Results

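The genes described here encode the enzymes and regulators of sterol and fatty acid synthesis. The 33 genes were taken by symbol from 45070 genes measured by RNA-seq in bone marrow-derived macrophages (BMDM) of wild-type mice. Each culture received 1 of 58 clinical kinase inhibitors (CKIs), or the vehicle DMSO, 1 h ahead of lipopolysaccharide (LPS, 10 ng/mL), and was harvested 2 h into the LPS stimulus, so that every group, the vehicle included, was LPS-treated. Each inhibitor had 3 samples, and DMSO had 6 in 2 sets of 3, in all 180 samples. BGT226, Omipalisib, Apitolisib and PF04691502, directed to both PI3K and mTOR, and AZD2014, directed to mTOR, are named here the 5 PI3K/mTOR inhibitors. AZD8186 and TG100115 are isoform-selective PI3K inhibitors, and MK2206 and GSK2110183 are directed to AKT. Concentrations differed among the inhibitors and were set by the study for an intended target that was not always the clinical one, Apitolisib being an example. Differences between inhibitors therefore cannot be told apart from differences in dose.

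Cholesterol is built from acetyl-CoA through mevalonate and isoprenoid units to squalene and then lanosterol, which is trimmed to cholesterol in many enzymatic steps. Fatty acids are built from the same acetyl-CoA by ATP-citrate lyase, acetyl-CoA carboxylase and fatty acid synthase, then elongated and desaturated. Both branches are transcribed under the SREBP factors, which the escort protein SCAP carries from the endoplasmic reticulum to the Golgi for cleavage when sterols are low and which INSIG proteins hold back when sterols are high. mTORC1 signalling is known to promote SREBP activity, and sterol synthesis in macrophages is known to change after Toll-like receptor stimulation.

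Total normalized read counts lay between 9477340 and 12273349 per sample, and mitochondrial genes took 0.525% to 4.47% of them. All 8 macrophage markers examined were present, at a summed 76047 to 228599 normalized reads per sample. The summed markers of T cells reached at most 31, of B cells 5 and of adipocytes 2, with the adipocyte gene Cidec at 0 throughout. Neutrophil markers summed to 120 to 1419 and fibroblast markers to 4 to 221. In DMSO the neutrophil sum was 172 to 520 and the fibroblast sum 19 to 141, against 120 to 825 and 14 to 57 with the 5 PI3K/mTOR inhibitors, and their part in the results was not tested. No gene was called between the DMSO sets among 12714 tested (limma, adjusted p under 0.05), with 310 at an unadjusted p under that value and none of these among the listed genes.

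Promoters were printed for 4 genes that fell with at least 4 of the 5 PI3K/mTOR inhibitors, and for Nsdhl, a gene of the same pathway that fell with none. They are RefSeq sequences of GRCm38.p6, from 250 bases before to 50 after the annotated start, 5′ to 3′ on the gene's strand. Capitals mark a sterol regulatory element (TCACNCCAC, the SREBP motif), an E-box (CACGTG) or a CCAAT box (CCAAT, the NF-Y motif), searched on both strands, so that ATTGG is a CCAAT box on the other strand.
Hmgcs1 promoter, chr13:119690101-119690400, plus strand: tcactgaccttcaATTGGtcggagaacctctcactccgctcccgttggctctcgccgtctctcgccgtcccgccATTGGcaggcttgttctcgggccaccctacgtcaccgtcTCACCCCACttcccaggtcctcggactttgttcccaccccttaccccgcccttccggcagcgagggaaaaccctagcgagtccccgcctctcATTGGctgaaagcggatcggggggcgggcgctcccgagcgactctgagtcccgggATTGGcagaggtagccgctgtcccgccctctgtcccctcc
Cyp51 promoter, chr5:4104648-4104947, minus strand: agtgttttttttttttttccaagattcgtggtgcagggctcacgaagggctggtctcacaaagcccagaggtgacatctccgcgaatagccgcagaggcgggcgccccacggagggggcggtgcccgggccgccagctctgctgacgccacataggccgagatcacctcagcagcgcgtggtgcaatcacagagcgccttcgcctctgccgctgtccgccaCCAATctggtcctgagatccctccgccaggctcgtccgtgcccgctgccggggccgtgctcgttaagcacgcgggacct
Msmo1 promoter, chr8:64733529-64733828, minus strand: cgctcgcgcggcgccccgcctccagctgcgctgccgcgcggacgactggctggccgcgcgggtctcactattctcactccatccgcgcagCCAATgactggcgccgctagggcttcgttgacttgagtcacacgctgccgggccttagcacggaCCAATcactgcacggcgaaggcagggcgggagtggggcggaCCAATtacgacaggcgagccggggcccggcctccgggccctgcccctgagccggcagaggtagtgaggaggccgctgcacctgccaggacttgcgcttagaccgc
Hsd17b7 promoter, chr1:169969156-169969455, minus strand: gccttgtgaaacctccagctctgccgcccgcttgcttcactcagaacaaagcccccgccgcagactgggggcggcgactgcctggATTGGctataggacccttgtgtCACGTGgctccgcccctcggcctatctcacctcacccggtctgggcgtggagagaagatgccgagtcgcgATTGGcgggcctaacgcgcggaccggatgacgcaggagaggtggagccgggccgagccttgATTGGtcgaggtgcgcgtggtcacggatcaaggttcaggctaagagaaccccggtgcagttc
Nsdhl promoter, chrX:72918271-72918570, plus strand: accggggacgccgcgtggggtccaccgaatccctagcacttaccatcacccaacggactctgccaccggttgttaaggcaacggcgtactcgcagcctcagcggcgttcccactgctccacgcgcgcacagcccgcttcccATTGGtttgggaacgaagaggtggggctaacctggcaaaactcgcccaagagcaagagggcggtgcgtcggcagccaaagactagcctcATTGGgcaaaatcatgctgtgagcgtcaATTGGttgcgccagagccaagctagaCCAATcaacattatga

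A promoter starting at the annotated gene start was found for 26 of the 33 genes, and not for Fads1, Fdft1, Fdps, Scd1, Scd2, Sqle and Stard4. The sterol regulatory element in these letters was in 1 of the 26, Hmgcs1, where it began at position -137 from the start, and in 1.24% of all 32851 promoters. The E-box was in 4 of the 26, Insig1, Sc5d, Scap and Hsd17b7, against 7.15% of all promoters. The CCAAT box was in 20 of the 26 (76.9%) against 37.4% of all promoters. It was present in the printed promoters of genes that fell and 4 times in that of Nsdhl, which did not. No marked motif overlapped another in the printed sequences.

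In DMSO the listed genes differed widely in level. Per kb of gene model, the highest means were those of Msmo1, a C4-methylsterol oxidase, at 696 ± 99.5 (SD, n = 6) normalized reads, of Srebf2, the sterol-directed SREBP, at 664 ± 163, and of Insig1, which retains SCAP, at 641 ± 94.6. These 3 did not differ beyond their spread. Hmgcs1, the HMG-CoA synthase, followed at 551 ± 74.2 and Fdps, the farnesyl diphosphate synthase, at 433 ± 63.8. Elovl6, a fatty acid elongase, was low at 8.99 ± 2.05 per kb. Scd1, a stearoyl-CoA desaturase, was the lowest at 1.31 ± 0.864 per kb, or 1 to 13 normalized reads per DMSO sample. Scd1 did not reach the mean of 10 normalized reads required for testing, and its reads cannot be fully told apart from those of Scd2. The other 32 genes were tested.

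The question for each inhibitor was which of the 32 genes differed from DMSO. The largest falls were those of Cyp51, Msmo1 and Hmgcs1 with Omipalisib. With Omipalisib 16 of the 32 genes were lower, against 8.16% of all genes tested, and 2 were higher, against 17.5% of all. AZD2014 lowered 12, against 13.5% of all, and raised 1, against 6.06%. PF04691502 lowered 9, against 4.22%, and raised 0, against 8.86%. BGT226 lowered 8, against 6.32%, and raised 3, against 24.1%. Apitolisib lowered 3, against 3.2%, and raised 4, against 12.7%. All calls are limma tests on log2(normalized read count + 1) at an adjusted p under 0.05, adjusted over all 12714 genes. The DMSO samples are shared by these comparisons.

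**Figure D1:**
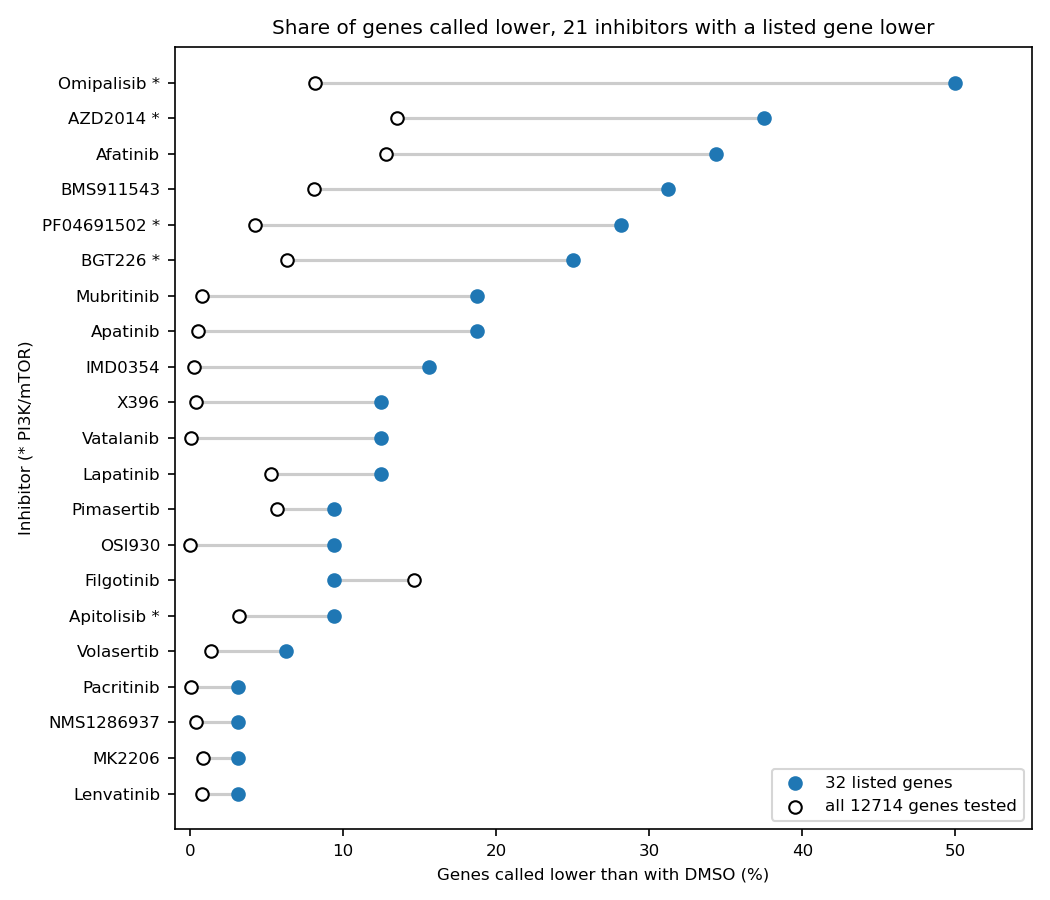
Percentage of genes called lower than with DMSO (x axis) for the 21 inhibitors with at least 1 listed gene lower (y axis, PI3K/mTOR inhibitors starred). Filled points are the 32 listed genes and open points all 12714 genes tested. The filled point lies to the right of the open one for every inhibitor shown except Filgotinib. Selection placed each filled point at 1 of 32 genes or more, which fixed this order where few genes were lower. Inhibitors that lowered other genes only, such as Midostaurin with 245 lower, are not shown.

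The authors' scaling left the median gene above 0 with 4 of the 5. The median log2 fold change of all genes was 0.21 with BGT226, 0.12 with Omipalisib, 0.11 with Apitolisib, 0.10 with PF04691502 and -0.02 with AZD2014. The median of the 32 listed genes was -0.11, -0.33, 0.02, -0.14 and -0.21 in the same order. After rescaling by the median of ratios, higher calls made up 50.7% of all calls with BGT226 instead of 79.2%, 49.5% instead of 68.2% with Omipalisib, 47.7% instead of 79.9% with Apitolisib and 42.1% instead of 67.8% with PF04691502. The listed genes then numbered 16 lower and 2 higher with BGT226, 17 and 2 with Omipalisib, 5 and 0 with Apitolisib, 11 and 0 with PF04691502 and 12 and 1 with AZD2014. Of all 12714 genes, those lower numbered 1948 with BGT226 instead of 803, 1751 instead of 1037 with Omipalisib and 907 instead of 407 with Apitolisib. They numbered 987 instead of 536 with PF04691502 and 1599 instead of 1719 with AZD2014. Those higher numbered 2000, 1713, 828, 717 and 976 in the same order. The directions below rest on that background, and the 4 listed genes raised by Apitolisib were not called higher after rescaling.

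Among the 8 mevalonate pathway genes, Hmgcs1 and Idi1 fell with the same 4 inhibitors. Hmgcs1 condenses acetyl-CoA and acetoacetyl-CoA ahead of mevalonate. Its normalized read count in the 6 DMSO samples was 2310, 2055, 1721, 2151, 1604 and 1985. It was 507, 501 and 461 with Omipalisib, 977, 796 and 764 with BGT226, 1083, 917 and 1046 with PF04691502 and 1265, 1125 and 1156 with AZD2014. All 12 of these samples lay below the lowest DMSO sample, those of Omipalisib the lowest. With Apitolisib the values 1863, 1687 and 1557 overlapped DMSO. The log2 fold change was -2.00 ± 0.13 (SE) with Omipalisib (adjusted p = 4.34e-28), -1.22 ± 0.13 with BGT226 (adjusted p = 1.65e-14), -0.95 ± 0.13 with PF04691502 (adjusted p = 6.97e-09) and -0.73 ± 0.13 with AZD2014 (adjusted p = 2.84e-06). With Apitolisib it was -0.20, with a 95% interval of -0.46 to 0.05 (adjusted p = 0.255).

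Idi1 interconverts the isoprenoid units IPP and DMAPP. Its DMSO values were 1029, 936, 948, 1261, 835 and 1034. They were 316, 344 and 259 with Omipalisib, 490, 461 and 386 with BGT226, 608, 459 and 621 with PF04691502 and 702, 570 and 705 with AZD2014. None of these overlapped DMSO, whereas the Apitolisib values 1014, 1011 and 1096 fell inside the DMSO range. The log2 fold change was -1.71 ± 0.17 with Omipalisib (adjusted p = 5.01e-15) and -0.61 ± 0.17 with AZD2014 (adjusted p = 0.00611), with BGT226 (-1.17) and PF04691502 (-0.84) between them. Without AZD2014 replicate 2 the AZD2014 call was lost (adjusted p = 0.0743).

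The remaining mevalonate genes moved less or the other way. Fdps fell with Omipalisib (log2 fold change -0.66 ± 0.24, adjusted p = 0.033) and Acat2, the cytosolic acetoacetyl-CoA thiolase, did so too (-0.44 ± 0.18, adjusted p = 0.0484). Ggps1, which makes geranylgeranyl diphosphate for protein prenylation, rose with BGT226, where its 3 samples read 317, 263 and 217 against 123 to 183 in DMSO (0.80 ± 0.16, adjusted p = 2e-05). It also rose with Omipalisib, at 219, 237 and 264 (0.67 ± 0.16, adjusted p = 0.000606), and neither group overlapped DMSO. Mvk, Pmvk and Mvd, the mevalonate kinases and decarboxylase, were called lower by none of the 5. Reads of Acat2 and of Fdps can be shared with near-identical copies elsewhere in the genome.

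**Figure D2:**
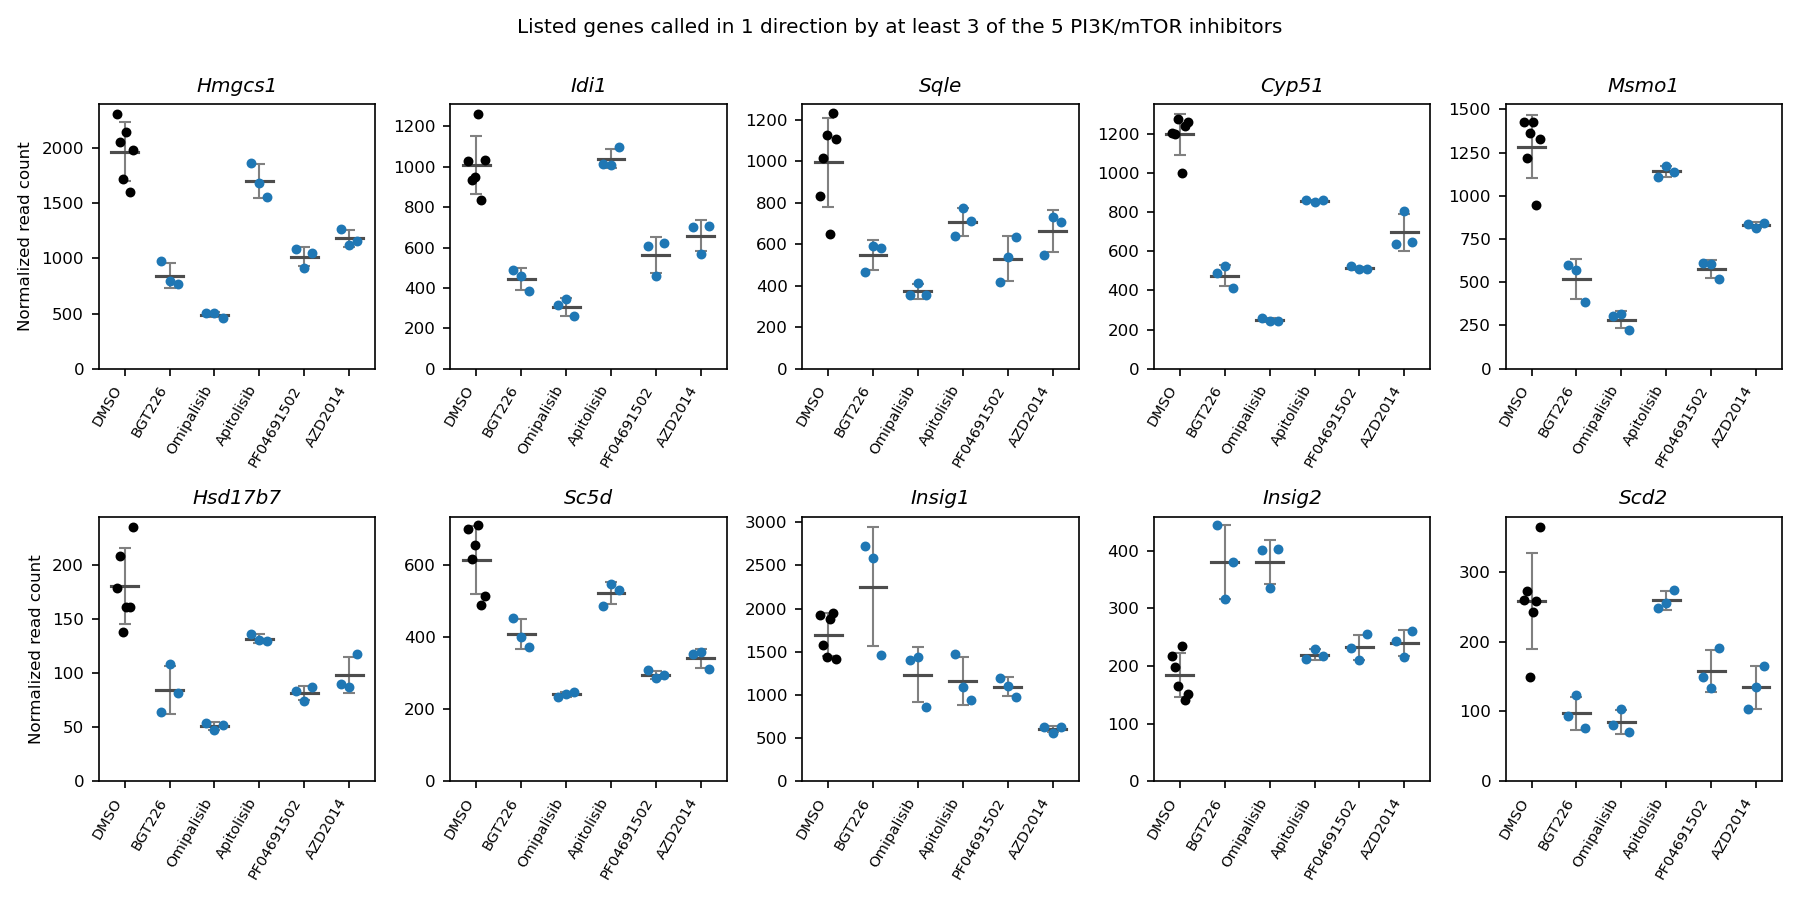
Normalized read count (y axis, from 0) of the 10 listed genes called in 1 direction by at least 3 of the 5 PI3K/mTOR inhibitors, by group (x axis). Points are samples, horizontal lines group means and bars 1 SD, with 6 samples for DMSO in black and 3 per inhibitor in blue. Omipalisib had the lowest group mean for all of them but Insig1 and Insig2.

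Of the 10 genes from squalene to cholesterol, the same 5 were lower with each of BGT226, Omipalisib, PF04691502 and AZD2014: Sqle, Cyp51, Msmo1, Hsd17b7 and Sc5d. The other 5, Fdft1, Lss, Nsdhl, Ebp and Dhcr7, were called lower by none of the 5 inhibitors. Cyp51, the lanosterol 14-alpha demethylase, had DMSO values of 1207, 1199, 1280, 999, 1242 and 1264. It stood at 259, 244 and 242 with Omipalisib, 489, 523 and 415 with BGT226, 524, 509 and 509 with PF04691502, 636, 807 and 649 with AZD2014 and 862, 855 and 863 with Apitolisib. Every one of the 15 samples lay below all DMSO samples, and Omipalisib lay lowest. The log2 fold change was -2.26 ± 0.12 with Omipalisib, 0.209 of the DMSO level (adjusted p = 1.74e-35), and -0.47 ± 0.12 with Apitolisib (adjusted p = 0.0122). It was -1.33 with BGT226, -1.22 with PF04691502 and -0.78 with AZD2014. The Apitolisib call was lost without Apitolisib replicate 3 (adjusted p = 0.113). Cyp51 had a log2 fold change below 0 with 57 of the 58 inhibitors.

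Msmo1 read 1426, 1221, 1362, 1429, 944 and 1327 in DMSO. The values were 305, 318 and 226 with Omipalisib, 602, 568 and 384 with BGT226, 609, 607 and 519 with PF04691502 and 836, 811 and 844 with AZD2014. These groups did not overlap DMSO, and Apitolisib, at 1110, 1173 and 1140, did. Its fall ran from a log2 fold change of -2.18 ± 0.11 with Omipalisib (adjusted p = 9.25e-37) to -0.62 ± 0.11 with AZD2014 (adjusted p = 4.46e-06).

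Hsd17b7, a 3-ketosteroid reductase of the C4-demethylation steps, read 178, 208, 138, 161, 161 and 235 in DMSO. It read 54, 47 and 52 with Omipalisib, 64, 108 and 81 with BGT226, 83, 74 and 87 with PF04691502, 90, 87 and 117 with AZD2014 and 136, 130 and 129 with Apitolisib. No inhibitor sample reached the DMSO range, although Apitolisib came within a few reads of it. Omipalisib gave a log2 fold change of -1.78 ± 0.15 (adjusted p = 1.57e-20) and Apitolisib of -0.43 ± 0.15 (adjusted p = 0.0348), the latter call being lost in 13 of 20 alternative settings. With BGT226, PF04691502 and AZD2014 it was -1.10, -1.12 and -0.86.

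Sc5d, the lathosterol oxidase, read 698, 617, 656, 710, 488 and 514 in DMSO. It was 233, 242 and 246 with Omipalisib, 307, 285 and 293 with PF04691502, 353, 359 and 311 with AZD2014 and 453, 401 and 371 with BGT226. All 12 values lay under the DMSO range, and Apitolisib, at 487, 548 and 531, overlapped it. Log2 fold changes were -1.33 ± 0.12 with Omipalisib (adjusted p = 4.51e-19), -1.04 with PF04691502, -0.83 with AZD2014 and -0.58 ± 0.12 with BGT226 (adjusted p = 2.26e-05).

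Sqle, the squalene epoxidase, varied more between DMSO samples, at 833, 1016, 1128, 651, 1232 and 1110. It read 353, 414 and 353 with Omipalisib, 467, 594 and 583 with BGT226, 417, 540 and 635 with PF04691502 and 546, 734 and 708 with AZD2014. The first 3 groups lay below DMSO, and AZD2014 overlapped its lowest sample. Sqle had a log2 fold change of -1.38 ± 0.19 with Omipalisib (adjusted p = 3.31e-09) and -0.57 ± 0.19 with AZD2014 (adjusted p = 0.0247). The AZD2014 call was lost without AZD2014 replicate 1 (adjusted p = 0.216).

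Nsdhl, which works in the same C4-demethylation complex as Msmo1 and Hsd17b7, had log2 fold changes of -0.03 with BGT226, -0.10 with Omipalisib, 0.47 with PF04691502 and 0.19 with AZD2014, and each of these intervals included 0. With Apitolisib it read 184, 151 and 201 against 48 to 153 in DMSO, a log2 fold change of 1.02 ± 0.35 (adjusted p = 0.0372). Ebp, the sterol isomerase, read 739, 699 and 723 with Apitolisib against 249 to 643 (0.77 ± 0.25, adjusted p = 0.0296). Over the 58 inhibitors the log2 fold change was below 0 with 10 for Nsdhl and 7 for Ebp, so a rise was common. Fdps (0.69 ± 0.24, adjusted p = 0.0402) and Mvk (0.49 ± 0.18, adjusted p = 0.0481) were the other genes called higher with Apitolisib. Leaving out any 1 of the Apitolisib libraries left none of these 4 called, as did leaving out DMSO set 2 replicate 2. The mitochondrial share was 1.49% to 4.04% with Apitolisib against 0.759% to 1.94% in DMSO, and no listed gene was called in either direction with Apitolisib when that share and the replicate number were terms of the fit. Lss, the lanosterol synthase, was higher with BGT226 at 172, 158 and 198 against 102 to 151 (0.49 ± 0.15, adjusted p = 0.00526). Fdft1, the squalene synthase, overlaps the highly expressed Ctsb on the opposite strand, and its value is uncertain because the strand setting of the counting was not given in the sources used here.

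Of the carriers, Stard4, which moves cholesterol between membranes, fell with Omipalisib to 164, 201 and 170 from 327 to 506 in DMSO, with no overlap (log2 fold change -1.32 ± 0.13, adjusted p = 5.89e-16). The other PI3K/mTOR inhibitors left it uncalled, at -0.33 (adjusted p = 0.0719) with PF04691502 and between -0.23 and 0.03 with the rest. Tmem97, an endoplasmic reticulum sterol-binding protein, was also lower with Omipalisib (-0.39 ± 0.14, adjusted p = 0.0295).

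The regulators moved in opposite directions. Insig1 read 1929, 1575, 1442, 1879, 1952 and 1411 in DMSO and 627, 560 and 628 with AZD2014, far below that range (log2 fold change -1.48 ± 0.18, adjusted p = 4.9e-11). It read 1198, 1101 and 977 with PF04691502 (-0.63, adjusted p = 0.0119), 1472, 1086 and 935 with Apitolisib (-0.56, adjusted p = 0.0292) and 1399, 1441 and 864 with Omipalisib (-0.48, adjusted p = 0.036). Apitolisib and Omipalisib each had a sample inside the DMSO range. Over the 58 inhibitors the log2 fold change of Insig1 was below 0 with 56. The Omipalisib call was lost without Omipalisib replicate 3 (adjusted p = 0.396), the Apitolisib call without replicate 2 or 3 (adjusted p = 0.0911 and 0.218) and the PF04691502 call without its replicate 3 (adjusted p = 0.0689). With BGT226 Insig1 read 2719, 2585 and 1458, a log2 fold change of 0.37 with an interval of 0.01 to 0.73 (adjusted p = 0.112).

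Insig2, the second SCAP-retaining protein, read 217, 198, 165, 235, 141 and 151 in DMSO, and 402, 336 and 403 with Omipalisib and 444, 316 and 381 with BGT226, both groups above all DMSO samples. The log2 fold change was 1.06 ± 0.14 with Omipalisib (adjusted p = 4.95e-10) and 1.05 ± 0.14 with BGT226 (adjusted p = 3.57e-10). With AZD2014 the values 244, 216 and 260 overlapped DMSO (0.40 ± 0.14, adjusted p = 0.03), and the call was lost without AZD2014 replicate 1 or 3 (adjusted p = 0.108 and 0.149). Srebf2 fell with Omipalisib, to 1681, 1628 and 1732 from 2328 to 4342 (-0.82 ± 0.18, adjusted p = 0.000156), and with PF04691502 (-0.57 ± 0.18, adjusted p = 0.0206). Srebf1, which encodes the fatty acid-directed SREBP, and Scap were called with none of the 58 inhibitors, their log2 fold changes lying between -0.39 and 0.25 and between -0.42 and 0.12.

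In the fatty acid branch 4 of 7 genes were lower with AZD2014, 3 with Omipalisib and 1 with BGT226, against 13.5%, 8.16% and 6.32% of all genes. With PF04691502 and Apitolisib 0 were lower, against 4.22% and 3.2%. Scd2, a stearoyl-CoA desaturase, read 260, 273, 150, 243, 259 and 365 in DMSO. It was 80, 104 and 71 with Omipalisib (log2 fold change -1.56 ± 0.27, adjusted p = 1.43e-06), 94, 123 and 76 with BGT226 (-1.38 ± 0.27, adjusted p = 1.49e-05) and 104, 135 and 165 with AZD2014 (-0.91 ± 0.27, adjusted p = 0.00767). Omipalisib and BGT226 lay below all DMSO samples, and AZD2014 overlapped the lowest. Without AZD2014 replicate 1 that call was lost (adjusted p = 0.105).

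Fasn, the fatty acid synthase, was called with AZD2014, where it read 189, 169 and 426 against 222 to 822 in DMSO (log2 fold change -1.07 ± 0.34, adjusted p = 0.0152), and the groups overlapped. Acaca, the acetyl-CoA carboxylase, read 64, 66 and 102 there against 63 to 157 (-0.63 ± 0.22, adjusted p = 0.0306). Fads2, the delta-6 desaturase, fell with AZD2014 (-0.90 ± 0.22, adjusted p = 0.00121) and Omipalisib (-0.80 ± 0.22, adjusted p = 0.00413), and Fads1, the delta-5 desaturase, with Omipalisib (-0.48 ± 0.16, adjusted p = 0.018). The log2 fold change of Fads2 was below 0 with 57 of the 58 inhibitors. Its mean over the 5 differed by -0.13 from that of the 49 groups not directed to PI3K, mTOR or AKT, which was not called (adjusted p = 0.215). Acly and Elovl6 were called with none of the 5.

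Whether the 5 PI3K/mTOR inhibitors differed from inhibitors of other kinases was asked without the DMSO samples, by setting the mean of their groups against the mean of the 49 groups not directed to PI3K, mTOR or AKT. Of the 32 genes, 17 were lower, against 17.2% of all genes, and 2 were higher, against 24.6%. The largest differences were in Msmo1 (log2 difference -0.96 ± 0.04, adjusted p = 7.69e-43), Hsd17b7 (-0.92 ± 0.06, adjusted p = 6.98e-31), Cyp51 (-0.84 ± 0.05, adjusted p = 1.1e-34) and Hmgcs1 (-0.81 ± 0.05, adjusted p = 1.44e-30). Idi1 (-0.73), Scd2 (-0.68), Sc5d (-0.64), Sqle (-0.53) and Fasn (-0.52) followed, and Stard4 (-0.38) and Srebf2 (-0.30) were also lower. Against DMSO, Stard4 was called with Omipalisib alone of the 5 (-1.32, the others between -0.33 and 0.03) and Fasn with AZD2014 alone. Insig2 (0.48 ± 0.05, adjusted p = 1.41e-13) and Ggps1 (0.20 ± 0.06, adjusted p = 0.00445) were higher. Insig1 differed by -0.20 ± 0.07 (adjusted p = 0.0157), a call lost without BGT226 replicate 3 (adjusted p = 0.103), Omipalisib replicate 3 (adjusted p = 0.0833) or Apitolisib replicate 3 (adjusted p = 0.0542). The test measures the spread between samples and not between inhibitors, and the number higher became 4 without PF04691502 replicate 3.

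**Figure D3:**
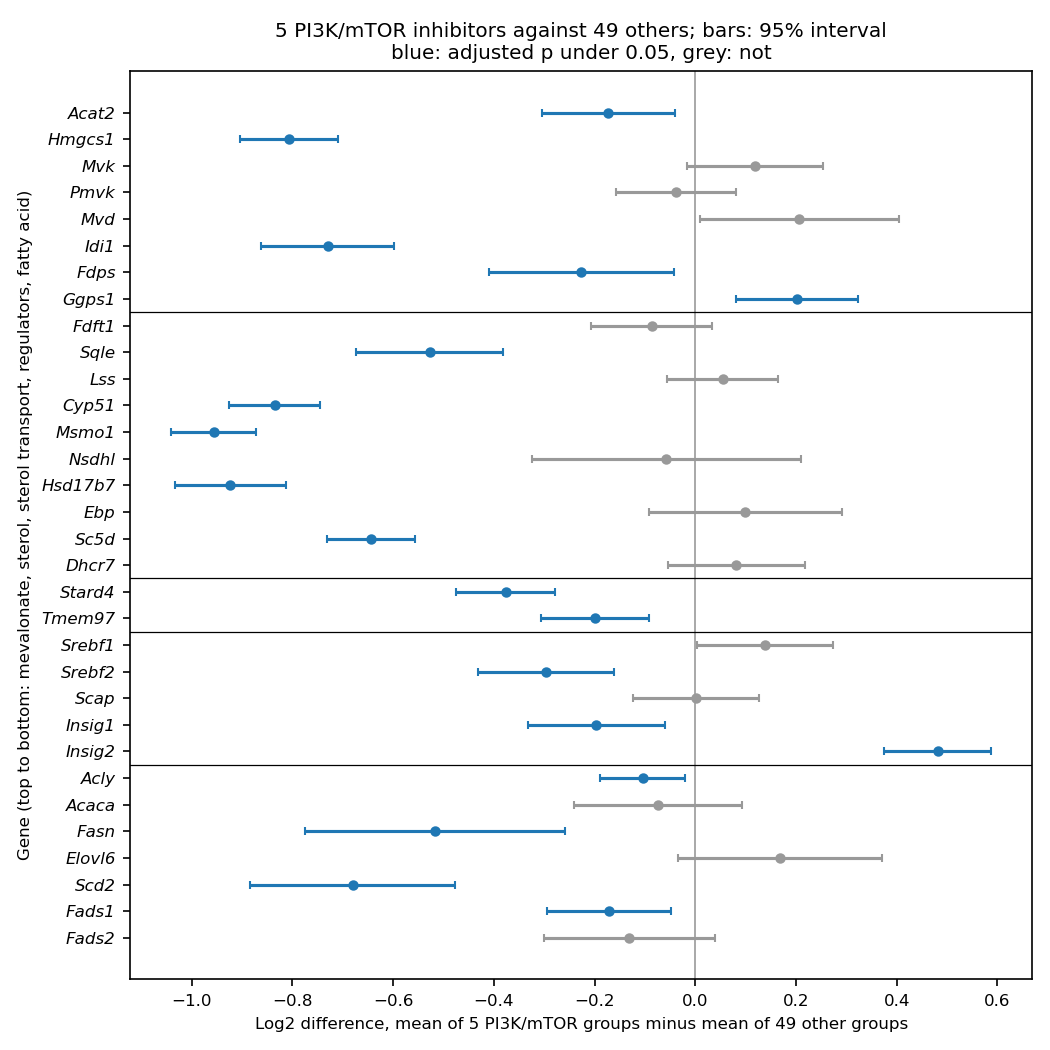
Log2 difference between the mean of the 5 PI3K/mTOR groups and the mean of the 49 other groups (x axis) for each of the 32 genes (y axis, grouped by role). Points are estimates, bars 95% intervals, blue an adjusted p under 0.05. Msmo1, Hsd17b7, Cyp51 and Hmgcs1 lie farthest to the left and Insig2 farthest to the right.

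The isoform-selective PI3K inhibitors and the AKT inhibitors gave few calls. MK2206 lowered 1 listed gene, against 0.834% of all genes. It was Cyp51, at 869, 803 and 963 (log2 fold change -0.45 ± 0.12, adjusted p = 0.038), all below DMSO. AZD8186, TG100115 and GSK2110183 gave no call. The log2 fold change of Cyp51 was below 0 with 57 of the 58 inhibitors, so a fall was not particular to PI3K or AKT inhibitors. With a replicate block in the fit, Cyp51 was called lower with AZD8186 and TG100115, and Insig2 higher with TG100115. For Cyp51 the log2 fold change was -0.45 with AZD8186 (interval -0.68 to -0.21, adjusted p = 0.0664), -0.34 with TG100115 (-0.58 to -0.11, adjusted p = 0.0864) and -0.33 with GSK2110183 (-0.56 to -0.09, adjusted p = 0.353). For Hmgcs1 it was -0.35 (-0.61 to -0.10), -0.02 (-0.27 to 0.24) and -0.14 (-0.40 to 0.11) with the same 3, none of them passing the adjusted threshold.

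Over the 58 inhibitors and 32 genes, 113 of 1856 tests were called lower (6.09%), against 1.65% of all tests, and 26 were called higher (1.4%), against 2.52%. Of these, 48 lower and 10 higher calls came from the 5 PI3K/mTOR inhibitors. At least 1 listed gene was called with 21 inhibitors, 16 of them outside the 5. A further 20 inhibitors had calls among other genes only, and 17 had no call at all. Cyp51 was lower with 20 of the 58 inhibitors and had a fold change below 0 with 57. Hsd17b7 was lower with 13, Sqle and Msmo1 with 11 each, Sc5d with 10, and Insig1 and Hmgcs1 with 9 each. Ggps1 and Ebp were the genes most often higher, with 5 inhibitors each. The log2 fold change was below 0 with 57 inhibitors for Fads2 and with 56 for Insig1. It was below 0 with 4 for Ggps1, 5 for Insig2, 7 for Ebp and 10 for Nsdhl.

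**Figure D4:**
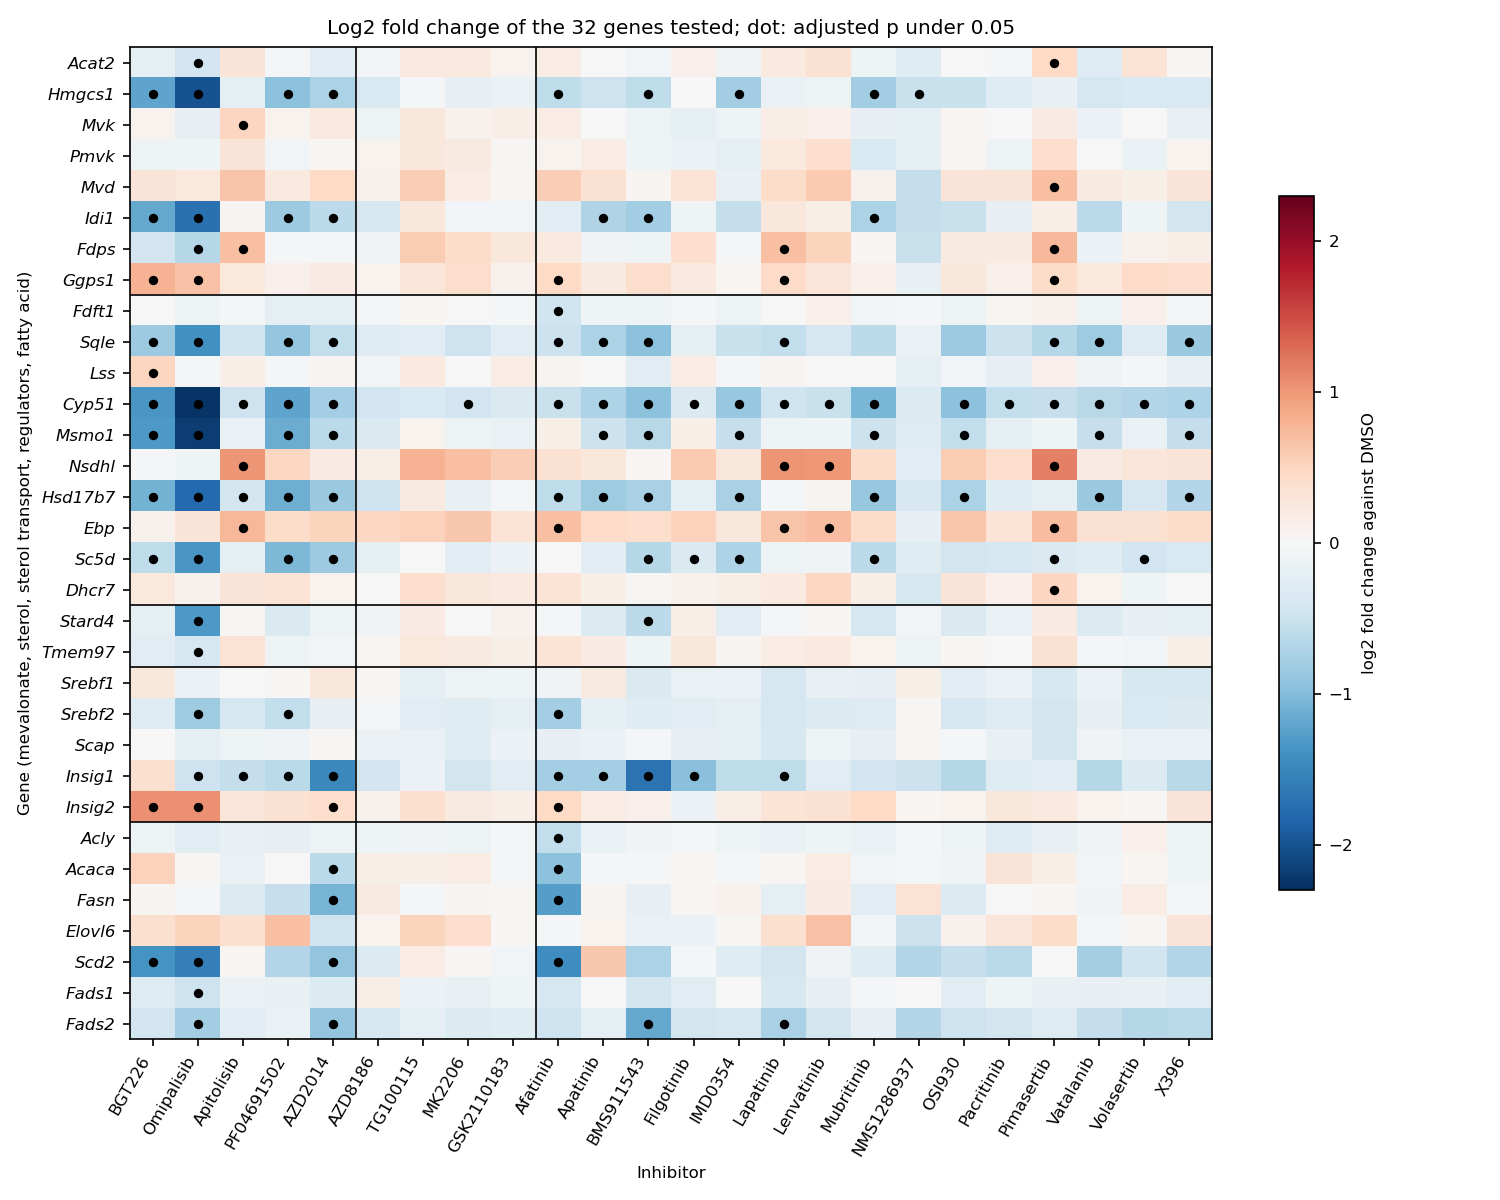
Log2 fold change against DMSO (colour, blue lower and red higher) of the 32 tested genes (rows, grouped by role) for 24 inhibitors (columns). The columns are the 5 PI3K/mTOR inhibitors, the 4 directed to PI3K isoforms or AKT, and the 15 others with at least 1 call. Dots mark an adjusted p under 0.05, and the row of Cyp51 carries the most dots.

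Several inhibitors with few changed genes in all still lowered sterol genes, each against the same 6 DMSO samples. Mubritinib lowered 6 listed genes, against 0.763% of all genes. Cyp51 read 520, 557 and 658 (log2 fold change -1.05 ± 0.12, adjusted p = 2.53e-11), Hmgcs1 1136, 1170 and 1062 (-0.80 ± 0.13, adjusted p = 4.86e-06) and Hsd17b7 89, 99 and 101 (-0.88 ± 0.15, adjusted p = 9.76e-06), none overlapping DMSO. Apatinib lowered 6, against 0.496%, and the 3 with the lowest adjusted p were Cyp51 at 725, 696 and 767 (-0.71, adjusted p = 8.15e-05), Hsd17b7 at 117, 87 and 97 (-0.83, adjusted p = 0.000177) and Msmo1 at 989, 810 and 910 (-0.50, adjusted p = 0.0101). Of these Msmo1 alone overlapped DMSO.

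IMD0354 lowered 5, against 0.267%. The lowest adjusted p were those of Cyp51 at 561, 700 and 720 (log2 fold change -0.86, adjusted p = 2.15e-07), Hmgcs1 at 1244, 1158 and 978 (-0.80, adjusted p = 1.55e-05) and Sc5d at 414, 328 and 372 (-0.72, adjusted p = 1.55e-05), all below DMSO.

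Vatalanib, OSI930 and X396 are named because of their values. Vatalanib lowered 4, against 0.0629%, which were 4 of the 8 genes it lowered in all. They were Sqle, Cyp51, Msmo1 and Hsd17b7, with Cyp51 at 679, 841 and 792 (log2 fold change -0.64 ± 0.12, adjusted p = 0.0023). OSI930 lowered 3, against 0.0236%, and these, Cyp51, Msmo1 and Hsd17b7, were the 3 genes it lowered in all. Cyp51 read 707, 536 and 623 there, below every DMSO sample (-0.95 ± 0.12, adjusted p = 8.63e-09). X396 lowered 4, against 0.354%, the same genes as Vatalanib. Volasertib lowered 2, against 1.34%, NMS1286937 lowered 1, against 0.37%, Pacritinib 1, against 0.0551%, and Filgotinib 3, against 14.6%, which for Filgotinib was a smaller share than that of all genes.

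BMS911543 lowered 10, against 8.08% of all genes. The 3 genes with the lowest adjusted p were Insig1, Cyp51 and Msmo1. Insig1 read 499, 630 and 438, under all DMSO samples and a larger fall than with any other inhibitor (log2 fold change -1.70 ± 0.18, adjusted p = 2.48e-12). Cyp51 read 662, 515 and 711 (-0.94 ± 0.12, adjusted p = 1.18e-09) and Msmo1 844, 754 and 848 (-0.64 ± 0.11, adjusted p = 3.22e-06), neither overlapping DMSO. Fads2 had the second largest fall with BMS911543 (-1.18 ± 0.22, adjusted p = 2.48e-05).

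Afatinib lowered 11, against 12.8%, and raised 3, against 9.06%. The genes lowered included 4 of the 7 fatty acid genes, Acly, Acaca, Fasn and Scd2. Acly, the ATP-citrate lyase, read 840, 548 and 1143 against 981 to 1366 in DMSO (log2 fold change -0.56 ± 0.11, adjusted p = 7.18e-05), and Scd2 read 58, 79 and 168 against 150 to 365 (-1.44 ± 0.27, adjusted p = 2.48e-05). In both genes replicate 3 lay inside the DMSO range and the other 2 samples below it. Srebf2 was lower as well (-0.78 ± 0.18, adjusted p = 0.000542). Msmo1, at 1491, 1325 and 1359, was not called.

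Lapatinib lowered 4, against 5.26%, and raised 4, against 18.1%, and Pimasertib lowered 3, against 5.68%, and raised 7, against 16%. Lenvatinib lowered 1, against 0.802%, and raised 2, against 11.4%. Cyp51 was among the lowered and Nsdhl and Ebp among the raised with all 3. These directions were common: the log2 fold change was below 0 with 57 of the 58 inhibitors for Cyp51, 10 for Nsdhl and 7 for Ebp. Nsdhl read 196, 198 and 195 with Pimasertib, above the DMSO range (log2 fold change 1.16 ± 0.35, adjusted p = 0.0142), and 188, 173 and 172 with Lapatinib (1.02 ± 0.35, adjusted p = 0.0277). Cyp51 read 701, 909 and 879 with Pimasertib (-0.53 ± 0.12, adjusted p = 0.0013) and 745, 987 and 909 with Lapatinib (-0.45 ± 0.12, adjusted p = 0.00838), below DMSO with both. Sqle fell with Pimasertib (-0.66 ± 0.19, adjusted p = 0.0114) and Fads2 with Lapatinib (-0.75 ± 0.22, adjusted p = 0.0135). The mitochondrial share was 3.24% to 4.29% with Pimasertib, 1.92% to 3.71% with Lapatinib and 2.07% to 3.7% with Lenvatinib, against 0.759% to 1.94% in DMSO, and its part in these calls was not tested.

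**Figure D5:**
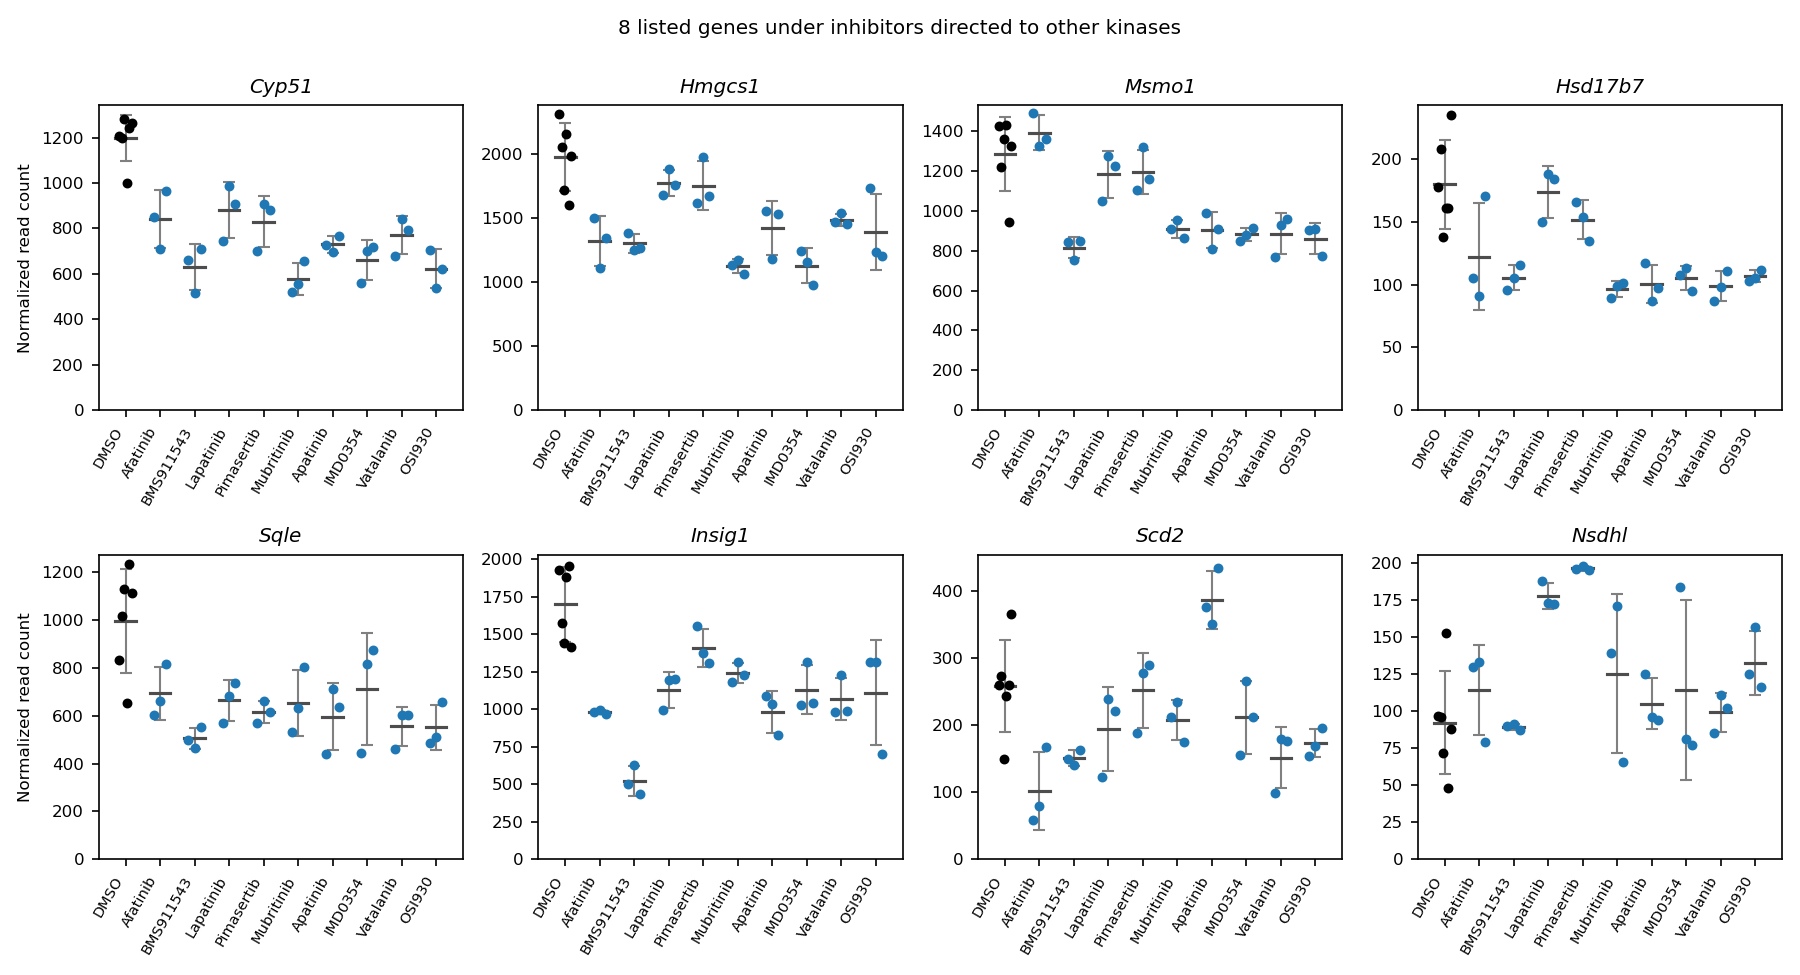
Normalized read count (y axis, from 0) of 8 listed genes under DMSO and 9 inhibitors directed to other kinases (x axis). Points are samples, lines group means and bars 1 SD, with 6 DMSO samples in black and 3 samples per inhibitor in blue. Cyp51 lies below DMSO in all 9, which share the DMSO samples, whereas Nsdhl lies above DMSO with Lapatinib and Pimasertib.

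Across the means of the 59 groups, the listed genes did not form a single profile. Over the 496 pairs of the 32 genes the median Pearson correlation of log2 levels was 0.26, with a range of -0.74 to 0.93, given as a description since the groups share scaling and replicate numbers. Hmgcs1 and Msmo1 (0.93), Cyp51 and Msmo1 (0.93), Hmgcs1 and Cyp51 (0.92) and Hmgcs1 and Idi1 (0.92) were the closest pairs. Fdps and Nsdhl formed another close pair (0.91), and Acat2 and Fdps did too (0.89). Insig2 ran opposite to Cyp51 (-0.73) and Hmgcs1 (-0.69). The correlation of Srebf1 with the mean of the other listed genes was -0.01 and that of Scap was -0.01.

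Among the 10 genes outside the list with the highest correlation to the mean profile of the 32, 6 were pseudogenes or predicted gene models. The highest was Idi1-ps1 (0.89), a processed copy that can take reads from Idi1. Kpna2, an importin, reached 0.73, Ctbp2, a transcriptional corepressor, 0.76 and Mtfr1l, a mitochondrial protein, 0.77, each over 59 group means. The remaining gene of the 10 is not reported here.

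Of 38 other genes of SREBP processing, lipid synthesis and sterol efflux, 37 were tested. With BGT226 3 were lower and 11 higher, against 6.32% and 24.1% of all genes, and with Omipalisib 5 and 9, against 8.16% and 17.5%. With Apitolisib there were 2 and 2, against 3.2% and 12.7%, with PF04691502 1 and 3, against 4.22% and 8.86%, and with AZD2014 8 and 3, against 13.5% and 6.06%. In SREBP processing, Rnf139, a sterol-sensing ubiquitin ligase, was lower with all of the 5 but Omipalisib, by -1.05 ± 0.24 on the log2 scale with Apitolisib (adjusted p = 0.0092) and -0.96 ± 0.24 with AZD2014 (adjusted p = 0.00152). Ufd1, a partner in endoplasmic reticulum protein degradation, was higher with BGT226 (1.12 ± 0.25, adjusted p = 0.000189), Omipalisib and Apitolisib. Slc25a1, the mitochondrial citrate carrier that supplies cytosolic acetyl-CoA, fell with AZD2014 (-1.91 ± 0.20, adjusted p = 1.62e-13), Omipalisib (-0.89 ± 0.20, adjusted p = 0.000293) and Apitolisib (-0.54 ± 0.20, adjusted p = 0.0498). Mid1ip1, an activator of acetyl-CoA carboxylase, was higher with all 5, by 0.31 to 0.53.

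In sterol efflux, Abcg1, an exporter of cholesterol, was higher with 4 of the 5, by 1.81 ± 0.26 with Omipalisib (adjusted p = 1.25e-08), 1.25 ± 0.26 with BGT226 (adjusted p = 6.07e-05), 1.24 ± 0.26 with PF04691502 (adjusted p = 0.00038) and 0.69 ± 0.26 with AZD2014 (adjusted p = 0.0493). Nr1h2, the sterol receptor LXR-beta, was higher with BGT226, Omipalisib and AZD2014, by 0.26 to 0.38. With BGT226 it was 0.28, where the median of all genes was 0.21. Of the 8 genes listed for LXR and sterol efflux, 5 were higher and 2 lower with BGT226, against 24.1% and 6.32% of all genes. With Omipalisib 4 were higher and 1 lower, against 17.5% and 8.16%. Those lower were Lpcat3 with both (-0.36 and -0.40) and Ch25h with BGT226 (-1.08). Apitolisib raised 0 of the 8, against 12.7% of all genes, PF04691502 1, against 8.86%, and AZD2014 2, against 6.06%, and these 3 inhibitors lowered 0. The median of the 8 with AZD2014 was -0.16. Npc2, which binds cholesterol in lysosomes, was listed with SREBP processing and not with efflux. It was higher with BGT226, Omipalisib and PF04691502, the largest being 0.67 ± 0.15 with Omipalisib (adjusted p = 0.000404). Npc1, of the same list, was lower with AZD2014 (-0.59 ± 0.18, adjusted p = 0.0126) and not called with the others.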

How the data were processed

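RNA was measured by SMART-seq2, a polyA-primed full-length cDNA protocol, in BMDM from 3 samples per inhibitor and 6 DMSO samples. The study's methods describe independent biological replicates. Per the labels the authors mapped reads to mm10 with TopHat2 2.1.1, and bedtools 2.29.2, DESeq2 and R 3.6.2 are also named in the submitters' processing notes. The deposited values are exonic read counts that the authors had normalized between samples and rounded to whole numbers, treated here as a score with no recoverable raw depth. Count models were therefore not used. Multi-mapped reads, gene overlaps and counting strand can alter single genes.

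Values were tested as log2(normalized read count + 1) with limma 3.58.1 in R 4.3.3, with a variance trend, in 1 fit over all 59 groups. Genes with a mean of at least 10 were kept, 12714 of 45070, and p-values were adjusted by Benjamini-Hochberg over all of them. A gene was called at an adjusted p under 0.05. Fold changes on this scale understate low genes, and SE and intervals (95%) come from the fit. The number of samples per group limits the precision. The procedure was tested on simulated data. Every column was tied to a sample by its label.

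The listed genes, the other pathway and marker lists and the tests were chosen with earlier results of these data known. All 33 listed genes were accounted for. Values per sample were given for those called in 1 direction by at least 3 of the 5 PI3K/mTOR inhibitors, for up to 3 genes of each other inhibitor with 5 or more calls, and for genes a comparison needed. Other pathway genes were named by the same rule of at least 3 of the 5, and Lpcat3, Ch25h and Npc1 as genes going the other way. No inhibitor concentration was used. The alternatives were other pseudocounts, filters, scaling, DMSO sets, a replicate block, a mitochondrial share term and leaving out samples.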

Additional observations from a re-analysis of the deposited data

Results flagged for a closer look

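Among the 32 genes tested, 3 had a DMSO sample far from the other 5, by a criterion that chance alone meets in about 1 of 20 groups. Cyp51 read 999 in set 2 replicate 1 against 1199 to 1280 in the others. Mvd read 81 in set 2 replicate 2 against 108 to 123, and Dhcr7 read 134 in the same library against 223 to 261. Leaving out each library was chosen after seeing the data. Without set 2 replicate 1 the genes lower numbered 8 with BGT226, 14 with Omipalisib, 4 with Apitolisib, 9 with PF04691502 and 12 with AZD2014, and without set 2 replicate 2 they numbered 9, 14, 1, 8 and 9. The cause was not tested.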

How the results depend on the processing

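The number of listed genes lower with BGT226, Omipalisib, PF04691502 and AZD2014 stayed within 1.5 times the reported 8, 16, 9 and 12 under most alternatives. Single genes were rerun for the 10 called in 1 direction by at least 3 of the 5 inhibitors, and none of their calls reversed. With no filter on low genes, Apitolisib had 1 lower and 0 higher and AZD2014 0 higher. After rescaling by the median of ratios, BGT226 had 16 lower and Apitolisib 5 lower and 0 higher. Among all genes tested, 1948 were then lower with BGT226 and 907 with Apitolisib, instead of 803 and 407. Against DMSO set 1 alone, Apitolisib had 0 lower and 0 higher, AZD2014 0 higher, and calls over all 58 inhibitors numbered 90 instead of 139. Against DMSO set 2 alone Apitolisib again had 0 and 0, and the total was 89. Fitting only the groups compared gave 1 lower and 2 higher with Apitolisib, 0 higher with AZD2014 and a total of 65. Requiring a log2 fold change of at least 0.5 left 1 lower with Apitolisib, 0 higher with AZD2014, and 9 lower and 0 higher for the 5 inhibitors against the 49 others. The cause was not tested.

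Replicate numbers are shared by the groups, but same-numbered samples did not pair throughout: the correlation of deviations with DMSO was over 0.1 in 10 of 15 pairs of the 5 inhibitors and 144 of 174 over all, and 126 of the inhibitor samples correlated best with their own number. With a replicate block, 5 listed genes were lower with Apitolisib, 2 were higher with PF04691502 and the total was 219. Under the block Cyp51 was lower with AZD8186 (adjusted p = 0.0159) and TG100115 (adjusted p = 0.0379), and Insig2 was higher with TG100115 (adjusted p = 0.0435), none of which was called without it. With the block and the mitochondrial share, BGT226 had 6 higher, AZD2014 3 higher and Apitolisib 0 lower and 0 higher.

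Leaving out samples, a whole replicate number or a single library, gave 10 to 15 lower with Omipalisib, the lowest without replicate 3 of every group. It gave 0 to 4 lower and 0 to 5 higher with Apitolisib, 0 to 2 higher with PF04691502 and 0 to 1 higher with AZD2014. The 5 inhibitors against the 49 others had 11 to 17 lower and 2 to 4 higher, and the total ran from 69 to 169. Of 50 calls of the 10 genes rerun singly, 12 were lost in at least 1 alternative, most often Hsd17b7 with Apitolisib (13 of 20) and Insig1 with Apitolisib and Omipalisib (11 of 20 each). Raw depth is unknown, and 3 samples per inhibitor limit what small changes could be called.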
